A study of Mus musculus with 24 samples.

Results

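The hair keratins and the keratin-associated proteins (Krtap) are the structural genes of the hair follicle and the hair shaft, and 73 of the 27180 rows of the count table hold them. Members were taken by name. A row entered if its symbol, or its RefSeq mouse symbol where the files gave none, began with Krtap or was one of the keratins of the follicle (Krt25 to Krt28, Krt31, Krt32, Krt33a, Krt33b, Krt34 to Krt36, Krt71 to Krt73, Krt75 and Krt81 to Krt86). Of 74 rows so named, those with a summed count of at least 30 over all 24 libraries were kept. That summed count was the only measured value in the rule, and it adds up all groups. The rule itself was set with earlier results of these data known. Just inside lay Krtap6-3 with 75 counts and Krtap20-2 with 166, and the row left outside was Krtap13 with 3. The members were 20 keratins and 53 Krtap genes. No row matched Krt85.

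A hair grows from a bulb in which differentiating epithelial cells form concentric layers. The inner root sheath, which moulds the growing hair, makes its own keratins and the cross-linking protein trichohyalin. The companion layer lies between it and the outer root sheath. The hair shaft itself is built from hard keratins, whose filaments are embedded in a matrix of cysteine-rich (high and ultrahigh sulfur) and glycine- and tyrosine-rich Krtap proteins joined by disulfide bonds. These genes are transcribed late in differentiation and in the growth phase of the hair cycle (anagen), and little in the resting phase (telogen).

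The study sequenced total RNA of mouse skin with or without the E7 oncoprotein of human papillomavirus 16, expressed from the keratin 14 promoter, which is active in basal keratinocytes (K14E7, here E7). Whole ear skin of 8-week-old C57BL/6 control mice (C57) and of K14E7 mice was compared. Ear skin of C57BL/6, K14E7 and CD1dKOxK14E7 donors (here CD1dKOxE7; the design text writes CD1d-/-xK14E7) was grafted onto C57BL/6 recipients and taken at 14 or 28 dpg, read here as days after grafting. Each of the 8 groups had 3 libraries, 6 of ear and 18 of grafts. All recipients carried an intact Cd1d1 gene by their strain label and no E7, so a graft sample can hold recipient cells of that genotype. The ages of donors and recipients are not stated for the grafts. The labels do not say that replicates came from separate animals, so p-values measure the spread between these samples, which may be technical.

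Library totals were 6550011 to 13814448 counts. Levels are CPM, counts scaled to an equal library size after adjustment by the trimmed mean of M-values (TMM), as mean ± SD of 3 libraries unless each library is given. Changes are log2 fold changes ± SE from edgeR's quasi-likelihood test. A gene "rose" or "fell" where its Benjamini-Hochberg adjusted p over all genes of the fit was below 0.05. E7 reads were 444 to 594 in E7 ears, 141 to 405 in grafts of E7-carrying donors and 0 to 2 in C57 libraries. Cd1d1 was read in every library, with 79 to 194 counts in the grafts labelled CD1dKOxE7 at 14 dpg and 34 to 110 at 28 dpg, against 96 to 208 in E7 grafts. Which part of the gene was deleted is not stated, and the name CD1dKOxE7 is used here as a label only. The keratinocyte keratins and loricrin (Krt5, Krt14, Krt1, Krt10, Lor) summed to 23249 CPM or more in every library. By the sample labels, the flow cell differed between ears and grafts, and the lane differed between CD1dKOxE7 grafts and the other grafts. Tissue and flow cell therefore cannot be told apart, nor can the CD1dKOxE7 donor and the lane.

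Several graft libraries stood apart from their group, of which 2 were low in hair genes at 14 dpg. Summed over the 73 members, E7 replicate 2 reached 3595 CPM against 14162 and 12376 CPM in replicates 1 and 3. Replicate 3 of the CD1dKOxE7 grafts reached 3286 CPM against 11517 and 8993 CPM in replicates 1 and 2. E7 replicate 2 was the lowest of its group for 73 of 73 members and CD1dKOxE7 replicate 3 for 72 of 73. The keratinocyte genes summed to 94913 CPM in E7 replicate 2, the highest of all 24 libraries. C57 replicate 3 at 14 dpg was likewise lowest of its group for 70 of 73, with 12315 CPM against 20312 and 19615. Over all genes, replicate 3 of the CD1dKOxE7 grafts at 28 dpg differed most from its group (chi-square over degrees of freedom 31.5 and 27.2, against 3.78 to 27.7 in all other pairs). It had 14.7 CPM of Cd1d1 against 5.34 and 4.44, 71.0 CPM of trunk Hox genes against 23.8 and 22.9, and 2524 CPM of sebaceous gland genes against 7255 and 5357. Its E7 level was 18.8 CPM against 44.1 and 44.4, and its keratinocyte genes summed to 31597 CPM against 48270 and 54040. Results that rest on the 2 low libraries or on this one are given below with and without them.

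By their protein sequence and known layer the members fell into 6 classes. The 7 inner root sheath keratins were Krt25, Krt26, Krt27 and Krt28 (type I) and Krt71, Krt72 and Krt73 (type II), and Krt75 was the companion layer keratin. The 12 hair shaft keratins were Krt31, Krt32, Krt33a, Krt33b, Krt34, Krt35, Krt36, Krt81, Krt82, Krt84, Krt86 and Krt87, the last named Krt83 in the files. Translated from their coding sequences, 19 Krtap proteins were more than 30% cysteine (ultrahigh sulfur; 30.3 to 42.8%, median 37.6%). Another 16 were at least 35% glycine and tyrosine (high glycine-tyrosine; 47.5 to 69.2%, median 63.7%). The remaining 18 (high sulfur and other) had 4.0 to 27.7% cysteine, and the keratins 0.726 to 7.69%. Krtap28-13 was both 42.8% cysteine and 42.0% glycine and tyrosine, and was counted as ultrahigh sulfur.

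The members lie in clusters. Chromosome 11 held 32 of them, 11 being type I keratins, between 99315516 and 100109487 (GRCm38.p6, the release of mm10 used for positions). Chromosome 15 held 9 type II keratins between 101431490 and 101802360, and chromosome 16 held 24 Krtap genes between 88610709 and 89571183. Chromosomes 7, 10 and 1 held 4, 3 and 1. Several copies are nearly the same: 6 pairs among 9 genes shared at least 95% of their coding bases, and the coding sequences of Krtap3-2 and Krtap3-3 were identical. How reads of such copies were assigned is not stated, so counts of Krtap3-2, Krtap3-3, Krtap6-1, Krtap6-5, Gm10228 (named Krtap6-1 in the files), Krtap4-1, Krtap4-2, Krtap31-1 and Krtap31-2 are uncertain between the copies.

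TATAAA, the core of the TATA box, was frequent in member promoters. The 200 bases directly before the start are printed here for 5 members that the results turn on (RefSeq, GRCm38.p6, each on the minus strand), with TATAAA and TCF/LEF words in capitals. Krt71 (chr15:101743098-101743297) and Krt25 (chr11:99322952-99323151) are the most abundant inner root sheath keratins. Krtap8-1 (chr16:89487953-89488152) was the highest glycine-tyrosine gene. Krtap3-2 (chr11:99556854-99557053) and Krt75 (chr15:101573905-101574104) departed from the other members in ear skin.
Krt71: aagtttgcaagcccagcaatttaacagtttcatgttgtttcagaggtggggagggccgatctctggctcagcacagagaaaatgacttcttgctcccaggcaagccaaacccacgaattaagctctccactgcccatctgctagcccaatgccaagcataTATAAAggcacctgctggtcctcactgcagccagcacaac
Krt25: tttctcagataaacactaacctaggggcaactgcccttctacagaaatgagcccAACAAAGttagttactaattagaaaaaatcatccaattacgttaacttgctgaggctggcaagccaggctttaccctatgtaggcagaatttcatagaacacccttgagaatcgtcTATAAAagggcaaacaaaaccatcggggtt
Krtap8-1: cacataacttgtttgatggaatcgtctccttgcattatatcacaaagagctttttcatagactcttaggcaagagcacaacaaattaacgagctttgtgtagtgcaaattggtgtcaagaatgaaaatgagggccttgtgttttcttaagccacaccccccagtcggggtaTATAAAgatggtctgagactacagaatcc
Krtap3-2: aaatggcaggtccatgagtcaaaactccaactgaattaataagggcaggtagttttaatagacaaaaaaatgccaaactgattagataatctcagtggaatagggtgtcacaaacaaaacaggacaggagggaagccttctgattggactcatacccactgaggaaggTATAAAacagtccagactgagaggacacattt
Krt75: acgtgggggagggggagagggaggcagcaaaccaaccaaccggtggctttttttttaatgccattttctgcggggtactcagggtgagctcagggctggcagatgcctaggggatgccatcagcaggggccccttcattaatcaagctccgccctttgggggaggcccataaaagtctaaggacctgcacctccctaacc
The capitals in Krt71, Krtap8-1 and Krtap3-2 mark TATAAA. In Krt25 they mark TATAAA and AACAAAG, which is CTTTGTT on the other strand. Krt75 held none of the words searched.

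A RefSeq promoter of 250 bases before to 50 bases after the start was found for 63 of the 73 members. TATAAA, on either strand, stood in 51 of 63 (81.0%) against 13.6% of all 32851 promoters of the table. On the gene's own strand, starting 35 to 20 bases before the start, it stood in 33 of 63 (52.4%) against 1.84% of all promoters. Anywhere in the window and on either strand, it stood in all 7 inner root sheath promoters and in 15 of 16 ultrahigh sulfur promoters. The word CTTTGAA and its relatives are bound by TCF/LEF factors, which carry Wnt signals in the hair bulb. The relatives searched were the word CTTTGAT, the word CTTTGTA and the word CTTTGTT. At least 1 of them, on either strand, was found in 25 of 63 member promoters (39.7%) against 16.9% of all promoters. The word CTTTGAA stood in 14 (22.2% against 5.14%), CTTTGAT in 4, CTTTGTA in 4 and CTTTGTT in 8. By class, a TCF/LEF word was present in 4 of 7 hair shaft keratin, 11 of 16 high sulfur, 5 of 16 high glycine-tyrosine, 2 of 7 inner root sheath and 3 of 16 ultrahigh sulfur promoters. The members share ancestry and clusters, so their promoters are not independent. A word is a description of the letters and not a shown binding site.

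The hair genes were nearly silent in intact ear, highest in grafts at 14 dpg and between the 2 at 28 dpg. Summed over the 73 members, C57 ears stood at 54.4 to 66.2 CPM and E7 ears at 50.03 to 115 CPM, which was 0.00477 to 0.0110% of a library. At 14 dpg the C57 grafts held 20312, 19615 and 12315 CPM, or 1.18 to 1.98% of all counts. By 28 dpg the same sum had come to 1190, 2233 and 2344 CPM. On that day E7 grafts held 564, 712 and 1034 CPM, and CD1dKOxE7 grafts 1112, 547 and 1293 CPM. The summed level of every 14 dpg graft lay above that of every 28 dpg graft, and all grafts lay above all ears. Gene by gene, all 9 grafts at 14 dpg lay above all 6 ears for 72 of 73 members, against 7.96% of the 18727 rows with a summed count of at least 30. All 9 grafts at 28 dpg lay above all ears for 60 members (6.58% of rows). All 14 dpg grafts lay above all 28 dpg grafts for 49 members (0.886% of rows). In whole skin, fewer cells of a type and less RNA per cell cannot be told apart.

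**Figure D1:**
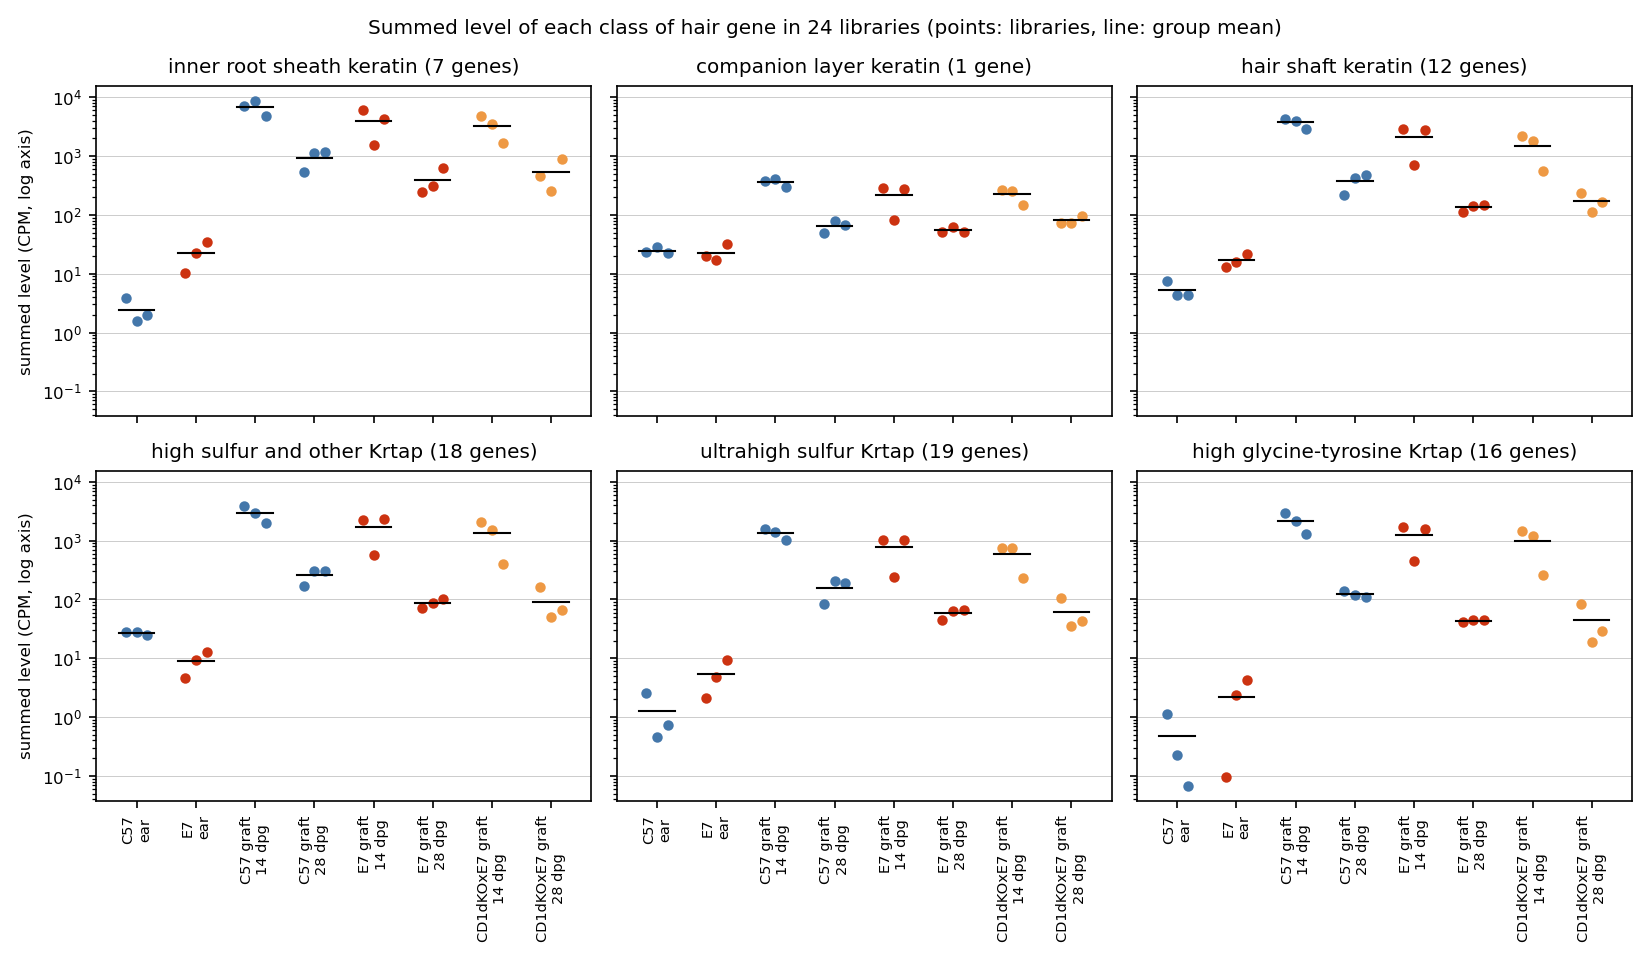
Summed CPM of the members of each of the 6 classes (log axis) in the 8 groups; each point is a library and each line the mean of the 3 libraries of a group. In 5 classes every 14 dpg graft lies above every 28 dpg graft, and in all 6 the grafts lie above the ears; the companion layer keratin Krt75 overlaps between the days and goes from 24.7 CPM in C57 ear to 362 CPM in C57 grafts at 14 dpg.

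Per kilobase of exon, the highest members of C57 grafts at 14 dpg were Krt71, the type II keratin of all inner root sheath layers, at 1327 CPM per kilobase, and Krtap8-1 at 1016. Then came Krt25, a type I partner of Krt71, at 914, Krt27 at 710 and Krtap7-1 at 668. Krt26 reached 55.4 and Krt84, a hard keratin also known from the tongue, 15.4. The same 5 genes led E7 grafts at 14 dpg, with Krt71 at 761 and Krtap8-1 at 593 CPM per kilobase. At 14 dpg, 52 of 73 members reached at least 10 CPM in all 9 grafts.

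**Figure D2:**
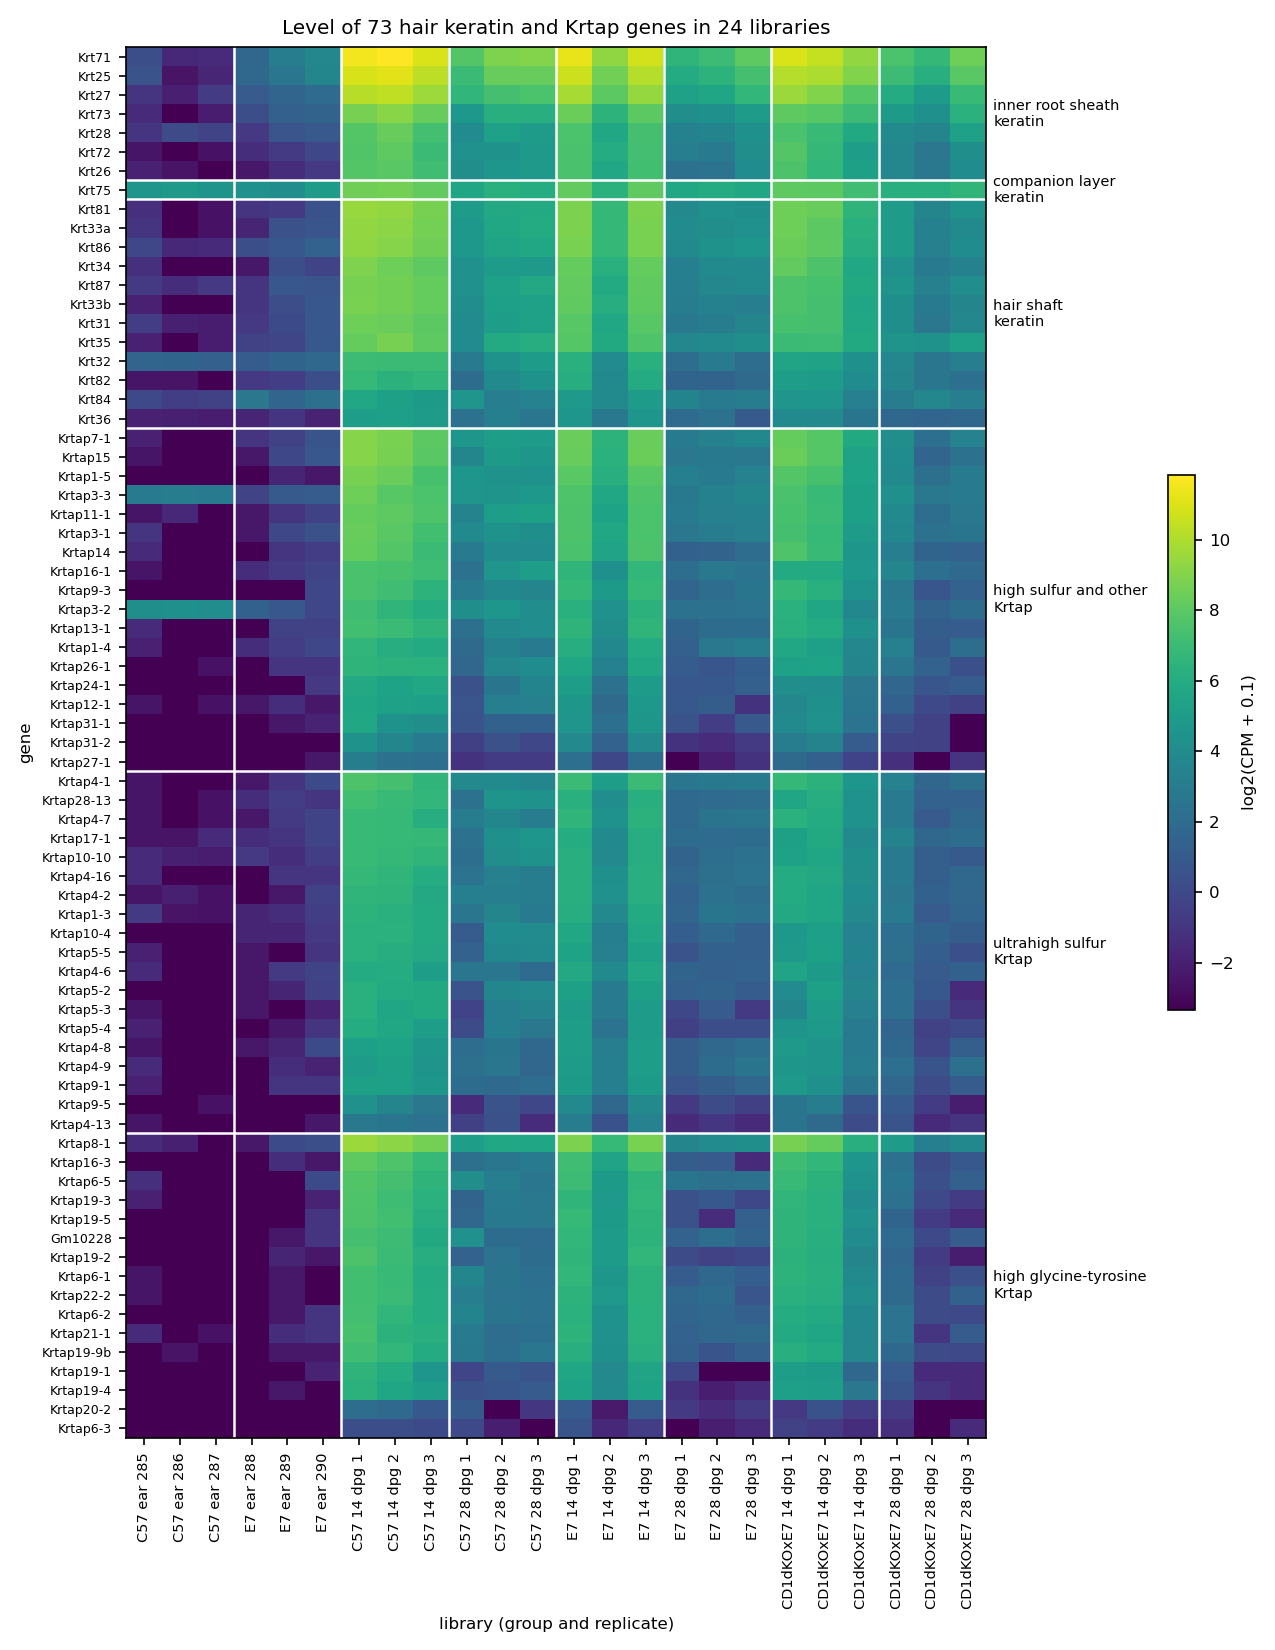
Level of each of the 73 members (rows, grouped by class) in each of the 24 libraries (columns), as log2(CPM + 0.1). Most members are at or near 0 counts in ears, except Krt75, Krt32, Krtap3-2 and Krtap3-3 in C57 ear, and all but the lowest members are read in every 14 dpg graft.

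In intact ear the level of most members was too low to test. Of the 73 members, 17 had 0 counts in all 3 C57 ears and 4 in all 3 E7 ears. Only Krt75, Krt32, Krtap3-2 and Krtap3-3 reached 1 CPM in all C57 ears, while 8 members did so in all E7 ears. The filter on low counts keeps genes that are high in either group, and 11 of 73 members passed it. Their counts describe those 11 only. E7 ear held more of 4 inner root sheath keratins (Krt71, Krt25, Krt27 and Krt73) and of Krt84 and Krt86, and less of Krtap3-2 and Krtap3-3: 6 of 11 rose (32.6% of 15720 genes rose) and 2 fell (32.7% fell). The 6 that rose had 5 to 29 counts each over the 3 C57 ears and passed the filter through the E7 ears. Their number therefore does not set the members apart from other genes.

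Krt71 stood at 1.14, 0.225 and 0.271 CPM in C57 ears and at 3.08, 8.39 and 12.7 CPM in E7 ears. The groups did not overlap. The E7 mean was 8.05 ± 4.82 CPM, and the fitted rise over C57 was 15.1-fold (3.92 ± 0.80, adjusted p = 0.00628 by edgeR). Krt25 stood at 1.39, 0.0751 and 0.203 CPM in C57 and at 3.37, 6.14 and 12.5 CPM in E7 ears (3.78 ± 0.90, adjusted p = 0.0132). For both genes C57_8wks_285 was the highest C57 ear and E7_8wks_290 the highest E7 ear. Krt27, the other abundant type I keratin of the sheath, rose 7.75-fold to 2.94 ± 0.98 CPM and Krt73, of the sheath cuticle, 15.8-fold to 2.11 ± 0.84 CPM. Krt28 did not pass (0.74 ± 0.48, adjusted p = 0.192). These levels remained small. Krt71 of E7 ear was supported by 252 counts in 3 libraries, and that of C57 ear by 21.

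Hair shaft keratins differed among themselves in ear. Krt84 stood at 0.900, 0.601 and 0.677 CPM in C57 ears and at 6.35, 3.02 and 4.64 CPM in E7 ears, without overlap (2.68 ± 0.33, adjusted p = 3.3e-05). Krt86, a keratin of the hair cortex, rose 4.24-fold (2.08 ± 0.49, adjusted p = 0.00309). The cuticle keratin Krt32 had means of 2.75 CPM in both groups (0.01 ± 0.24, adjusted p = 0.971), and Krt75 of 24.7 and 22.9 CPM (-0.11 ± 0.23, adjusted p = 0.704). Over all 73 members, tested or not, every E7 ear lay above every C57 ear for 25, against 31.9% of the rows with a summed count of at least 30.

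Krtap3-2 and Krtap3-3 went the other way. Krtap3-2 stood at 18.3, 19.1 and 17.1 CPM in C57 ears and at 2.50, 1.66 and 0.852 CPM in E7 ears. No libraries overlapped, and it fell 10.8-fold (-3.44 ± 0.23, adjusted p = 3.72e-07). Krtap3-3 fell 5.10-fold, from 7.91 ± 0.52 to 1.54 ± 0.67 CPM (-2.35 ± 0.25, adjusted p = 1.06e-05). Both were among the 4 members with at least 1 CPM in all C57 ears, together with Krt75 and Krt32, and Krt75 alone held 35.3 to 45.0% of all member counts there. The ratio of Krtap to inner root sheath counts was 8.21, 18.0 and 12.9 in C57 ears and 0.657, 0.746 and 0.759 in E7 ears. Partners and regulators of hair formation went both ways in ear. Tchh, the trichohyalin gene (1.31 ± 0.15, adjusted p = 2.88e-05 by edgeR), and Foxn1 (0.86, adjusted p = 0.000415) rose. Lef1 (-1.28, adjusted p = 0.00164), Lgr5 (-0.83, adjusted p = 0.00016) and Msx2 (-0.43, adjusted p = 0.0115) fell. Hoxc13 and S100a3 did not pass. The smallest adjusted p were those of Ovol1 and Crnn, which rose, and Sox9, which fell. Markers of other cell types differed too. Of the 5 keratinocyte genes 4 rose, among them Krt1 by 12.6-fold, and their sum went from 23249 to 25424 CPM in C57 to 45740 to 51430 CPM in E7 ears. Of 8 melanocyte genes tested 7 fell (129 to 138 and 51.6 to 71.2 CPM summed over 10). Others that fell were skeletal muscle (10 of 10 genes fell; summed 5570 to 9934 CPM in C57 and 1882 to 2863 in E7 ears, none at 0) and cartilage (9 of 9 tested fell; 718 to 770 and 165 to 213 CPM, with Matn1 at 0 in both groups). Adipocyte genes fell as well (7 of 8; 617 to 850 and 212 to 248 CPM, none at 0). Their part in these results was not tested. Without the ear E7_8wks_288, 14 members were called instead of 8. The share of all genes called in that fit is not given here.

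**Figure D3:**
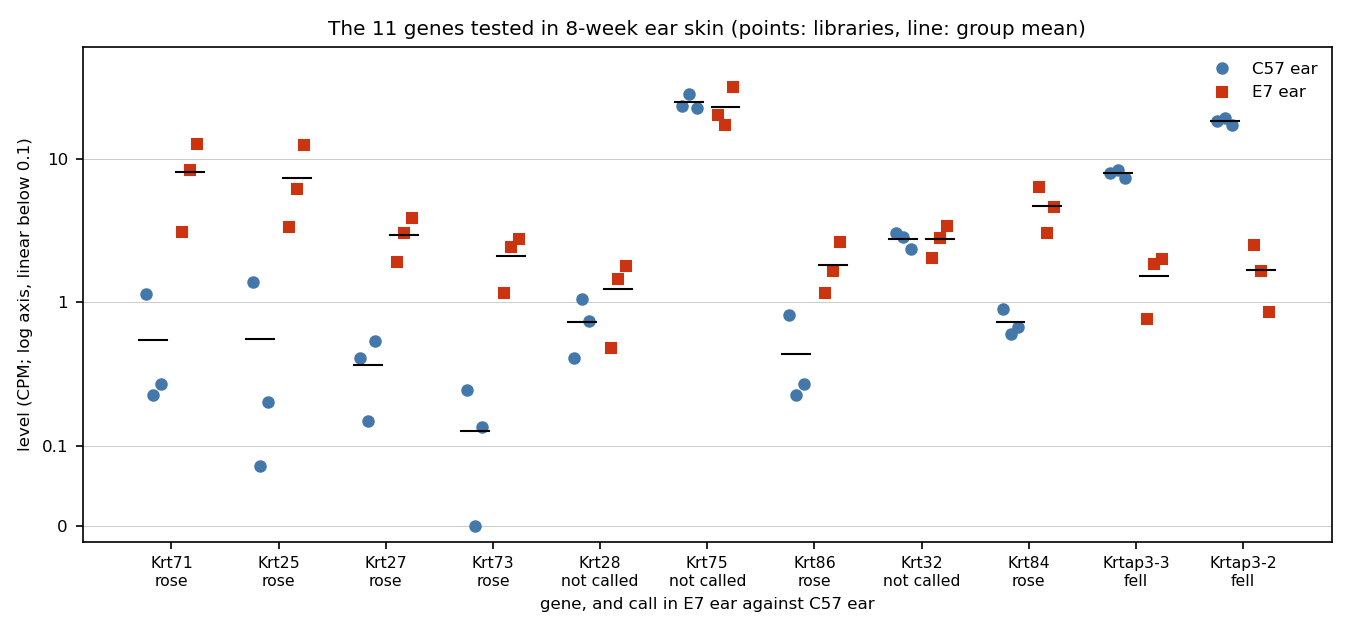
CPM of the 11 members tested in ear skin (log axis, linear below 0.1 CPM), C57 ears as circles and E7 ears as squares, with lines at the group means. Krt71, Krt25, Krt27, Krt73, Krt86 and Krt84 lie higher in all 3 E7 ears, Krtap3-3 and Krtap3-2 lie lower, and Krt28, Krt75 and Krt32 overlap.

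Grafted skin carried the whole set of hair genes at far higher levels than ear skin of the same genotype. In C57 grafts at 14 dpg, 72 of 73 members passed the low-count filter and all 72 tested rose (median log2 fold change 11.04, range 2.49 to 14.47), against 30.6% of 16612 genes; none fell, against 22.0%. At 28 dpg 69 of 72 rose in C57 grafts (median 7.24; 21.3% of genes). In E7 grafts, compared with E7 ear, 72 of 72 rose at 14 dpg (median 7.48; 21.9% of genes) and 43 of 72 at 28 dpg (median 3.45; 23.8% of genes). Most members passed the filter through the grafts alone and had to differ, so these counts describe them and support nothing further. The 2 C57 comparisons share their ear libraries, as do the 2 E7 comparisons.

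Krt71 went from 0.547 ± 0.518 CPM in C57 ear to 3045, 3642 and 2013 CPM in C57 grafts at 14 dpg and 222, 475 and 520 CPM at 28 dpg. In E7 skin it went from 8.05 ± 4.82 CPM in ear to 2535, 647 and 1811 CPM and then to 96.4, 131 and 264 CPM. Every graft library lay above every ear library of its genotype. Relative to ear, the change in C57 grafts was 12.40 ± 1.00 at 14 dpg (adjusted p = 3.32e-08 by edgeR) and 9.56 ± 0.95 at 28 dpg. In E7 grafts it was 7.69 ± 0.78 and 4.34 ± 0.69. Krt75 rose less, from 24.7 ± 2.98 to 362 ± 58.2 CPM in C57 grafts at 14 dpg (3.87 ± 0.39, adjusted p = 3.17e-07) and 64.9 ± 14.9 CPM at 28 dpg (1.39 ± 0.37).

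Krtap genes included the members with no reads at all in C57 ear. Krtap1-5 had 0 counts in all 3 C57 ears and stood at 424, 337 and 170 CPM in C57 grafts at 14 dpg, at least 4169-fold higher taking 3 counts over the group as the floor. At 28 dpg it was at least 300.1-fold higher. Krtap16-3 and Krtap19-5, of the glycine-tyrosine class, were at least 2623-fold and 1852-fold higher at 14 dpg. Class medians in C57 grafts at 14 dpg were 11.62 for inner root sheath keratins, 10.41 for hair shaft keratins, 11.13 for high sulfur, 9.67 for ultrahigh sulfur and 12.03 for high glycine-tyrosine Krtap. These medians come from fitted values that depend on a prior count where ears had few or no reads.

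At 28 dpg the E7 comparison called part of each Krtap class. All 7 inner root sheath keratins rose over E7 ear, as did Krt75 and 9 of 12 hair shaft keratins, against 8 of 18 high sulfur, 12 of 19 ultrahigh sulfur and 6 of 15 high glycine-tyrosine Krtap genes tested. All 72 fold changes were positive (the median over all genes was 0.01), so the classes differ here in what passed the threshold. Whether they differ in the change itself was not tested. The hair shaft keratins not called were Krt32 (0.89 ± 0.74, adjusted p = 0.335), Krt82 (2.04, adjusted p = 0.103) and Krt84 (0.94 ± 0.45, adjusted p = 0.0935), although for each of them all 3 E7 grafts at 28 dpg lay above the 3 E7 ears. DESeq2 called 67 of 72 in this comparison where edgeR called 43, and without a single library edgeR called 29 to 36. How many of all genes passed in those runs is not given here. In C57 grafts at 28 dpg, Krtap3-2 stood at 18.4, 24.3 and 17.0 CPM, overlapping the C57 ears (0.13 ± 0.53, adjusted p = 0.874). It and Krtap3-3 are described in grafts because of their values in ear.

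Trunk-position Hox genes moved with graft against ear. Of 13 such genes 10 rose in C57 grafts at 14 and at 28 dpg, 11 in E7 grafts at 14 dpg and 12 at 28 dpg. Their sum was 8.5 to 22.5 CPM in ears and 22.9 to 89.3 CPM in grafts. Hoxa9, Hoxa10, Hoxb6, Hoxb7, Hoxc8, Hoxc9 and Hoxc10 had 0 counts in all 6 ears, and Hoxc8 had 2.41 to 15.9 CPM in every graft, though the label of these samples is grafted ear skin. In C57 grafts at 14 dpg all 10 skeletal muscle genes fell (385 to 1376 CPM summed against 5570 to 9934 in ear, none at 0). Of 10 melanocyte genes 6 rose (135 to 369 against 129 to 138 CPM, none at 0). The part of these other cells or of other skin in the hair gene levels was not tested.

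From 14 to 28 dpg the hair genes fell together in grafts of all 3 donors. In C57 grafts 71 of 72 tested members fell (median -3.35, range -5.54 to -1.47), where 14.2% of 16189 genes fell. In E7 grafts 71 of 72 fell (median -3.97, range -6.95 to -1.47; 9.48% of genes), and in CD1dKOxE7 grafts 69 of 72 (median -3.34, range -5.59 to -0.98; 11.8% of genes). No member rose, against 8.40, 7.68 and 10.8% of genes, and all 72 tested had negative fold changes in each donor. The median over all genes was -0.03, 0.01 and 0.00. Without both low 14 dpg libraries, a comparison chosen after seeing the data, 71 of 72 fell in E7 (median -4.39) and 71 of 72 in CD1dKOxE7 grafts (median -3.70). Without CD1dKOxE7 replicate 3 at 28 dpg 62 fell (median -3.31), and without C57 replicate 3 at 14 dpg 71 fell in C57 grafts (median -3.53). Leaving out single libraries gave 70 to 72 in C57, 68 to 71 in E7 and 51 to 70 in CD1dKOxE7 grafts.

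In C57 grafts all 7 inner root sheath keratins fell, by 2.83 to 3.12 on the log2 scale. Krt71 fell 7.10-fold in C57 (-2.83 ± 0.61, adjusted p = 0.00496 by edgeR), 10.1-fold in E7 (-3.33 ± 0.63, adjusted p = 0.00429) and 6.23-fold in CD1dKOxE7 grafts (-2.64 ± 0.61, adjusted p = 0.00747), where it went from 2006, 1433 and 676 to 185, 109 and 363 CPM. The days did not overlap in any donor. Krt25 kept a near constant ratio to Krt71: Krt71 counts were 1.36 to 1.76 times those of Krt25 in the 18 grafts.

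Krt75 fell less than the inner root sheath: -2.47 ± 0.38 in C57, -1.94 ± 0.38 in E7 and -1.46 ± 0.37 in CD1dKOxE7 grafts, with adjusted p of 0.00066, 0.00516 and 0.0126. The difference from the sheath keratins was not tested. Among hair shaft keratins the cortex keratin Krt81 fell from 710, 653 and 430 CPM to 32.9, 56.5 and 60.4 CPM in C57 grafts (-3.58 ± 0.60, adjusted p = 0.00102) and by 4.27 and 3.52 on the log2 scale in E7 and CD1dKOxE7 grafts. Krt84 fell least (-1.47 ± 0.41 in C57, -1.47 ± 0.44 in E7), and in CD1dKOxE7 grafts it did not pass (-0.98 ± 0.43, adjusted p = 0.122). Krt36, a hard keratin also known from the nail, fell by 2.36, 2.39 and 1.87 on the log2 scale. Class medians for hair shaft keratins were -3.32, -4.06 and -3.20 in C57, E7 and CD1dKOxE7 grafts, against -2.91, -3.30 and -2.64 for the inner root sheath.

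The glycine-tyrosine genes fell furthest, with class medians of -4.16, -4.75 and -4.71. In C57 grafts Krtap19-1 went from 92.0, 65.0 and 24.3 CPM to 0.806, 1.82 and 1.40 CPM (-5.54 ± 0.96, adjusted p = 0.00133). Krtap19-4 fell from 44.0, 15.1 and 44.1 CPM to 0.373, 0.141 and 0.250 CPM in E7 grafts (-6.95 ± 0.97, adjusted p = 0.00115), the largest fall of a member in any donor. In both cases the lowest 14 dpg library stood more than 10-fold above the highest at 28 dpg. Krtap19-2 and Krtap16-3 were among the 4 largest falls in all 3 donors (Krtap16-3: -5.01, -6.29 and -5.04). The high sulfur medians were -3.56, -4.09 and -3.67, and the ultrahigh sulfur medians -3.11, -3.78 and -3.23. The member not called in any donor was Krtap20-2 (adjusted p = 0.131, 0.301 and 0.298), with 4.17 CPM in its highest library. Krtap4-13 also missed the threshold in CD1dKOxE7 grafts (-2.26 ± 0.78, adjusted p = 0.05005).

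**Figure D4:**
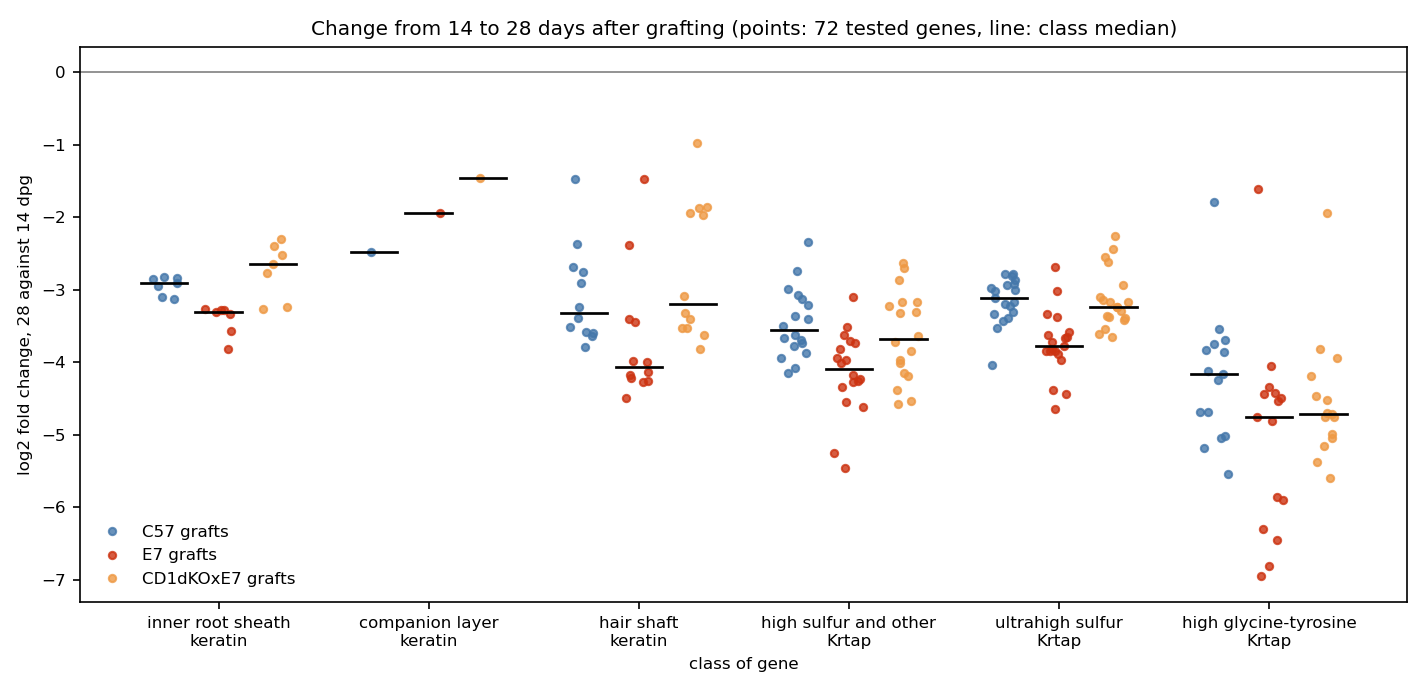
Log2 fold change of each of the 72 tested members from 14 to 28 dpg, by class and donor of the graft; each point is a gene and each line a class median. All points lie below 0; high glycine-tyrosine Krtap genes reach lowest (class medians -4.16, -4.75 and -4.71) and the companion layer keratin Krt75 lies at -2.47, -1.94 and -1.46.

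The make-up of the hair transcripts was described by the share of each class in the member counts. Inner root sheath keratins took 35.3 to 50.8% of member counts in the 9 grafts at 14 dpg and 40.9 to 69.0% at 28 dpg. Glycine-tyrosine Krtap genes took 8.08 to 14.5% and 2.22 to 11.6%. The ratio of ultrahigh sulfur to glycine-tyrosine counts was 0.503 to 0.885 at 14 dpg and 1.10 to 1.82 in 8 of the 9 grafts at 28 dpg. The exception was C57 replicate 1 at 28 dpg, with 0.613 and the highest glycine-tyrosine share of that day (11.6%, against 5.32 and 4.76% in replicates 2 and 3). At the other end, CD1dKOxE7 replicate 3 at 28 dpg had 69.0% inner root sheath and a ratio of Krtap to inner root sheath counts of 0.154. Its inner root sheath sum of 892 CPM was the highest of that group, while its Krtap sum of 137 CPM was far below the 349 CPM of replicate 1. Shares of 1 sum move against each other, so a higher share of a class is not by itself a higher level.

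**Figure D5:**
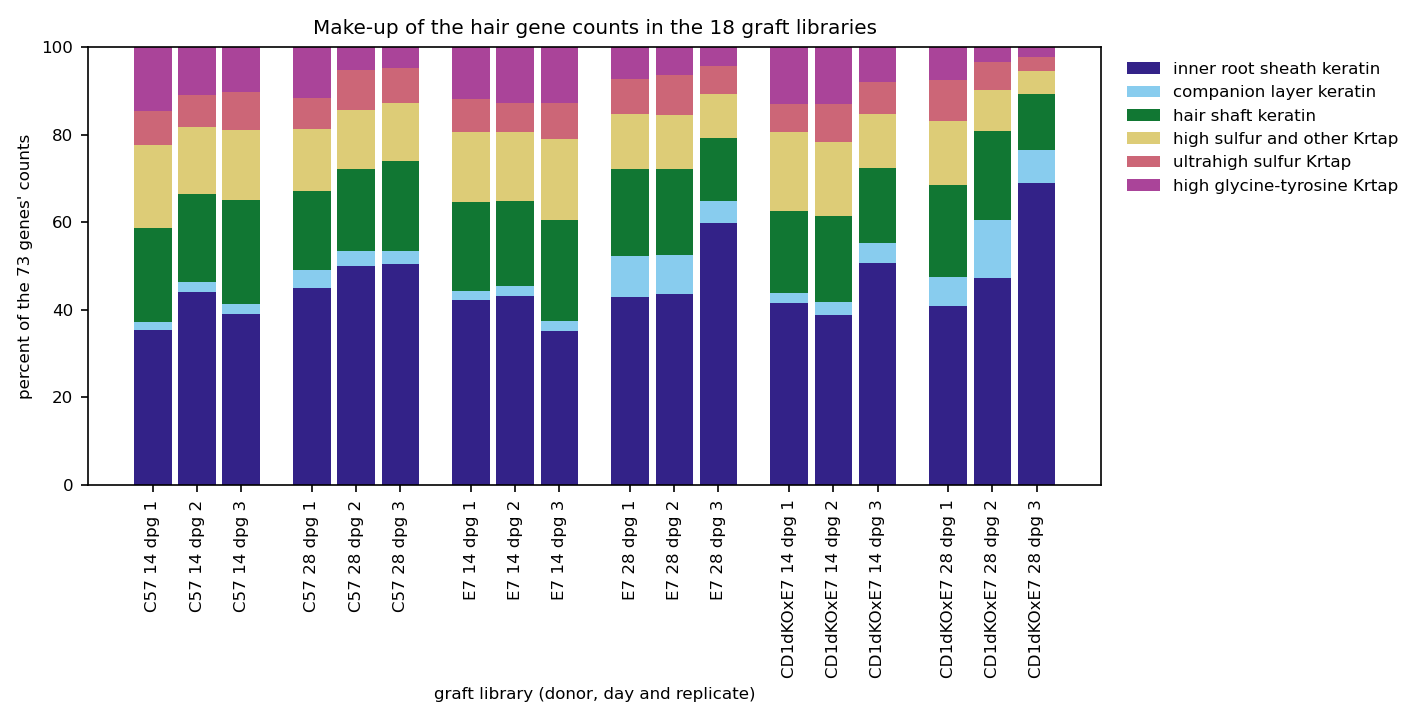
Percent of the counts of all 73 members that fell in each of the 6 classes, in the 18 graft libraries. Inner root sheath keratins take 35.3 to 50.8% at 14 dpg and 40.9 to 69.0% at 28 dpg, and high glycine-tyrosine Krtap genes shrink from 8.08 to 14.5% to 2.22 to 11.6%.

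Known partners and regulators of hair formation followed the same course in part. Of 37 such genes chosen with the members, 22 fell and none rose from 14 to 28 dpg in C57 grafts, 18 fell and 2 rose in E7 grafts, and 17 fell and 1 rose in CD1dKOxE7 grafts. Of all genes, 14.2, 9.48 and 11.8% fell and 8.40, 7.68 and 10.8% rose in the same order of donors. The list was chosen with earlier results of these data known, so its counts describe it only. Tchh, the trichohyalin gene of the inner root sheath, fell in all 3 donors (-2.86 ± 0.61, -3.46 ± 0.63 and -2.94 ± 0.62; adjusted p = 0.00468, 0.00361 and 0.00425 by edgeR). Padi3, whose product modifies trichohyalin, fell from 216, 261 and 139 CPM to 16.2, 28.1 and 29.6 CPM in C57 grafts (-3.06 ± 0.52). The transcription factor genes Msx2 (-2.06, -2.07 and -1.43) and Foxn1, the nude gene (-1.41, -1.15 and -0.72), also fell in all 3. Hoxc13, a direct activator of hair keratin genes, fell in C57 (-1.97 ± 0.38) and E7 grafts (-1.64 ± 0.39) and missed the threshold in CD1dKOxE7 grafts (-0.99 ± 0.38, adjusted p = 0.0762).

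Genes of follicle growth and stem cells passed in some donors. Lef1, a TCF/LEF factor of the hair matrix, fell in C57 (-2.07 ± 0.45) and CD1dKOxE7 grafts (-1.60 ± 0.48) but not past the threshold in E7 grafts (-1.36 ± 0.49, adjusted p = 0.0682). Shh, the matrix signal sonic hedgehog, fell in C57 grafts from 4.93, 14.3 and 2.39 CPM to 0.895, 1.68 and 0.977 CPM (-2.59 ± 0.72, adjusted p = 0.0174). It did not pass in E7 (-1.70 ± 0.81, adjusted p = 0.160) or CD1dKOxE7 grafts (-0.88 ± 0.67, adjusted p = 0.379). Lgr5, a marker of follicle stem and progenitor cells, did not pass in any donor (-0.69, -0.73 and -0.79). Skeletal muscle genes rose in C57 grafts over the same days (9 of 10; 385 to 1376 CPM summed at 14 dpg and 2468 to 5463 at 28 dpg, none at 0). None of the 10 passed in E7 or CD1dKOxE7 grafts. Of 13 trunk Hox genes none passed in C57 or E7 grafts and 1 fell in CD1dKOxE7 grafts, where the sum was 45.3 to 52.5 CPM at 14 dpg and 23.8, 22.9 and 71.0 CPM at 28 dpg. Sebaceous gland sums went up without overlap in C57 (2559 to 3103 and then 4008 to 4224 CPM; 1 of 12 rose) and E7 grafts (2314 to 3501 and then 4023 to 5963 CPM; 2 of 12 rose). In CD1dKOxE7 grafts 9 of 12 rose (1884 to 3190 and then 2524 to 7255 CPM). Keratinocyte sums went down without overlap in C57 (36330 to 43347 and then 25969 to 29702 CPM; 2 of 5 fell) and E7 grafts (53156 to 94913 and then 42863 to 47908 CPM; 1 of 5 fell). In CD1dKOxE7 grafts, where they overlapped (24275 to 36657 and then 31597 to 54040 CPM), 3 of 5 rose and 1 fell. The part of these cells in the fall of the hair genes was not tested.

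In E7 against C57 grafts at 14 dpg fold changes of the hair genes were mostly negative, and no member passed the test. At 14 dpg 0 of 72 members passed edgeR's test (30.2% of 16189 genes passed in either direction). Only Krt32 had an unadjusted p below 0.05 (0.0397), and DESeq2 also called 0. The median was -0.76, with 71 of 72 fold changes negative. All 3 E7 grafts lay below all 3 C57 grafts for 21 of 72 members, against 25.1% of genes. These included Krt32, with means of 56.8 CPM in E7 and 130 CPM in C57 grafts (-1.19, adjusted p = 0.0993 by edgeR), and Krt33b, Krt35 and Krt82. Krt71 stood at 2535, 647 and 1811 CPM in E7 and 3045, 3642 and 2013 CPM in C57 grafts, overlapping (-0.79 ± 0.58, adjusted p = 0.317). Without both low 14 dpg libraries the count was again 0 and the median -0.35. The keratinocyte genes also separated these grafts (36330 to 43347 CPM in C57 and 53156 to 94913 CPM in E7; 2 of 5 rose), and their part was not tested.

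At 28 dpg 6 of 72 members were lower in E7 than in C57 grafts, a smaller share than the 14.7% of all genes that fell. These calls therefore do not set the members apart from other genes. They were the hair shaft keratins Krt33b, Krt35, Krt32 and Krt82 and the Krtap genes Krtap3-2 and Krtap28-13. The 3 E7 grafts lay below the 3 C57 grafts for 46 of 72 members, against 25.6% of genes, and all 72 fold changes were negative (median -1.41). Krt32 stood at 7.79, 22.1 and 31.8 CPM in C57 and 4.10, 7.19 and 4.25 CPM in E7 grafts (-1.95 ± 0.67, adjusted p = 0.0357 by edgeR). The groups did not overlap, and C57 replicate 1 lay closest to the E7 grafts.

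Krt33b, a cortex keratin, stood at 17.3, 36.9 and 40.1 CPM in C57 and at 8.20, 10.2 and 9.00 CPM in E7 grafts (-1.75 ± 0.63, adjusted p = 0.0435). Krt35, an early keratin of the shaft, stood at 15.5, 60.5 and 70.4 CPM in C57 and at 12.7, 14.2 and 18.4 CPM in E7 grafts and overlapped between groups (-1.65 ± 0.59, adjusted p = 0.0441). C57 replicate 1 was the lowest of its group for both, as it was for 52 of 73 members. Krt82, of the cuticle, fell 4.23-fold (-2.08 ± 0.75, adjusted p = 0.0437) and Krtap28-13 4.14-fold (-2.05 ± 0.76, adjusted p = 0.0488). Krtap3-2 stood at 18.4, 24.3 and 17.0 CPM in C57 and 5.09, 5.22 and 5.37 CPM in E7 grafts (-1.91 ± 0.69, adjusted p = 0.0457). Krt71 (-1.29 ± 0.59, adjusted p = 0.102) and Krt75 (-0.20 ± 0.38, adjusted p = 0.707) did not pass. Partners and regulators of hair formation went both ways. S100a3, a calcium-binding protein gene of the hair cuticle, fell (-2.08 ± 0.62, adjusted p = 0.0187), as did Selenbp1 (-1.24). Krt17 (1.87), Dsc2 (1.14), Krt79 (1.03), Ovol1 (0.90) and Wnt10a (0.81) rose. Tchh, Hoxc13, Lef1, Msx2 and Foxn1 did not pass.

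These 6 calls depended on how the data were handled. Without C57 replicate 1 there were 17, without any of the other 5 libraries there were 0, and DESeq2 called 30. Shares of all genes are not given for these runs. With the replicate number as a block 1 was called. Other cell type markers differed between the same libraries. Of 12 sebaceous gland genes 8 rose in E7, though their sums overlapped (4023 to 5963 CPM in E7 and 4008 to 4224 in C57). Sums that did not overlap were those of keratinocyte genes (42863 to 47908 in E7 and 25969 to 29702 CPM in C57; 2 of 5 rose), skeletal muscle genes (1343 to 1620 and 2468 to 5463 CPM; 0 of 10 passed) and melanocyte genes (101 to 104 and 128 to 196 CPM; 2 of 10 fell). No gene of these lists was at 0 in all libraries of either group, and their part was not tested. The change of the E7 difference from 14 to 28 dpg was not past the threshold for any of 72 members by edgeR (0.167% of genes passed; 0 at an unadjusted p below 0.05; DESeq2 0; median -0.67).

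Between CD1dKOxE7 and E7 grafts no hair gene passed edgeR's test. At 14 dpg 0 of 72 passed (29.8% of genes passed), none at an unadjusted p below 0.05, and DESeq2 called 0 (median -0.37). At 28 dpg 0 of 72 passed (0.210% of genes), none at an unadjusted p below 0.05, and DESeq2 called 0 (median 0.16, range -1.04 to 1.51). Without both low 14 dpg libraries the 14 dpg count was 0 and the median -0.41. Without E7 replicate 2 alone, 2 fell. Keratinocyte sums separated the 14 dpg grafts (53156 to 94913 CPM in E7 and 24275 to 36657 CPM in CD1dKOxE7) and overlapped at 28 dpg. At 14 dpg Krt10 (-2.80), Lor (-2.20) and Krt1 (-1.60) fell, Krt14 rose (0.57) and Krt5 did not pass. The part of these cells was not tested. Without CD1dKOxE7 replicate 3 at 28 dpg the 28 dpg count was 0 and the median 0.21. Krt71 at 28 dpg stood at 185, 109 and 363 CPM in CD1dKOxE7 and 96.4, 131 and 264 CPM in E7 grafts, overlapping. The change of this difference between days was not past the threshold for any member (12.8% of genes passed; 1 of 72 at an unadjusted p below 0.05; DESeq2 0; median 0.54). These results do not show that the donors are alike, since for Krt71 the change was -0.29 ± 0.57 at 14 dpg and 0.40 ± 0.58 at 28 dpg.

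Krt71, Krt25 and Krt84 rose with E7 in ear and did not pass in E7 against C57 grafts, and the difference of these effects was tested. The E7 effect was lower in 14 dpg grafts than in ear for 3 of 72 members (8.61% of genes) and in 28 dpg grafts for the same 3 (5.13% of genes). For Krt71 the difference of effects was -4.71 ± 1.21 at 14 dpg (adjusted p = 0.0163 by edgeR) and -5.22 at 28 dpg (adjusted p = 0.0134). For Krt25 it was -4.58 ± 1.22 (adjusted p = 0.0201) and -5.04 ± 1.22 (adjusted p = 0.0176). For Krt84 it was -3.36 ± 0.71 (adjusted p = 0.00408) and -3.37 ± 0.73 (adjusted p = 0.00887). Krt27, Krt73 and Krt86 also rose in E7 ear, and their differences did not pass (adjusted p = 0.0732, 0.0734 and 0.246 at 14 dpg by edgeR). Of 72 members 69 had a negative difference at 14 dpg (median -3.03, against -0.05 over all genes). At 28 dpg it was again 69 (median -3.71, against 0.01). The members with a positive difference on both days were Krtap3-2, Krtap3-3 and Krtap9-5, and none passed. At 14 dpg Krtap3-2 stood at 2.68 ± 0.88 (adjusted p = 0.0540 by edgeR), Krtap3-3 at 1.57 and Krtap9-5 at 1.17. Krtap3-2 and Krtap3-3 were well read in C57 ear, with 731 and 318 counts. Most members were too low to test in ear, so these medians describe fitted values only. Both comparisons share the ear libraries. Without C57_8wks_287 or E7_8wks_290 only 1 was called at 14 dpg. DESeq2 called 26 at 14 dpg and 39 at 28 dpg. The share of all genes it called is not given here, so these counts do not set members against other genes.

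Krtap3-2 and Krtap3-3, whose coding sequences are identical, were counted in different proportions in ear and graft. Krtap3-2 counts were 2.31, 2.28 and 2.31 times those of Krtap3-3 in the 3 C57 ears and 0.342 to 0.459 times in the 9 grafts at 14 dpg. In C57 grafts at 28 dpg they were 0.762, 1.05 and 0.635 times. The ratios of C57 ears and 14 dpg grafts did not overlap. In E7 ears, with 52 and 48 counts in all, the ratio varied from 0.429 to 3.25. Krtap3-3 rose in C57 grafts at 14 dpg from 7.91 ± 0.52 to 261 ± 87.6 CPM (5.05 ± 0.58, adjusted p = 1.63e-06 by edgeR), and Krtap3-2 from 18.2 ± 1.05 to 102 ± 38.4 CPM (2.49 ± 0.52, adjusted p = 0.000621), the smallest rise of a tested member. Reads of the shared coding bases cannot be told apart, so the ratio rests on the bases outside them and on how shared reads were counted, which is not stated.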

How the data were processed

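Processed data were integer read counts per gene, deposited by the authors as 1 table for each of 24 libraries. The tools named for ears in the submitters' processing notes are bcl2fastq 1.8.4 and Trimmomatic, those for grafts FastQC and Trimmomatic, and the genome is mm10. Aligner, counter, annotation release and strand are not given in the sources used here. Overlapping genes and near-identical copies are therefore uncertain. Per the labels' protocols, Trizol and RNeasy columns gave total RNA from frozen whole ears and grafts, and TruSeq RNA v2 the libraries.

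Of 27180 rows, 25275 matched RefSeq. The symbol in the files was missing for 8 members and differed from RefSeq for 4, which carry their RefSeq symbol here: Krtap3-2 (Krtap3-3 in the files), Krt87 (Krt83), Gm10228 (Krtap6-1) and Krtap10-4 (Krtap10-10). In 3 further rows only RefSeq gives a name of the rule (Krt83, Krtap2-4 and Krtap5-1), and these were not members. Coding sequences came from GENCODE M21 on GRCm38 and promoters from RefSeq.

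Counts were tested with edgeR 4.0.16 (R 4.3.3, limma 3.58.1): TMM scaling after edgeR's expression filter filterByExpr (count 10, total 15), robust quasi-likelihood fits, Benjamini-Hochberg adjustment over all genes, threshold 0.05. Ear (15720 genes), graft (16189 genes) and all libraries (16612 genes) were fitted separately. The SE was the absolute log2 fold change over the square root of F. Folds against 0 counts used 3 counts over the group. Intervals and floors cover counting error only. The code was tested on data with known changes: for the ear comparison (15694 genes) 99 of 100 genes changed 2-fold and 100 of 100 changed 4-fold were recovered with 11 false calls, and for E7 against C57 grafts at 14 dpg (15984 genes) 95 and 100 with 15. Chi-square over degrees of freedom of replicate pairs was 3.78 to 31.5, so no library was counted as deposited more than once. Figures and tables used Python 3.11.15, numpy 2.4.6, pandas 2.3.3 and matplotlib 3.10.9.

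Members and lists were chosen with earlier results of these data known. Every keratin could be named, with, per comparison, the 4 rising and 4 falling Krtap genes with the largest change at 1 CPM or more, the 3 highest of each Krtap class, and rows at the edge of the summed count. Of the companion genes, Tchh, S100a3, Hoxc13, Lef1, Msx2, Foxn1, Shh and Lgr5 and the smallest adjusted p were named; Padi3, Krtap3-2 and Krtap3-3 in grafts were named after their values were seen. Alternatives were DESeq2 1.42.0, a replicate block, other scalings (RLE, upper quartile), other filters (none, or 1 CPM in 3 libraries), fits restricted to the groups in question, and each library left out; leaving out both low 14 dpg libraries was added after seeing the data. The replicate numbers did not pair libraries: of 21 same-numbered pairs, 5 had correlated deviations above 0.1 (range -0.371 to 0.322).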

Additional observations from a re-analysis of the deposited data

Results flagged for a closer look

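The effect of E7 differed between ear and graft for 3 of 72 members, by a test of the difference itself. It was also lower in grafts past the threshold for 8.61% of all genes at 14 dpg and 5.13% at 28 dpg. The 3 calls therefore do not set the members apart from other genes. At 14 dpg it was lower in grafts than in ear by a log2 difference of -4.71 for Krt71, -4.58 for Krt25 and -3.36 for Krt84. At 28 dpg the differences were -5.22, -5.04 and -3.37. All 3 genes are keratins that rose in E7 ear and did not pass in E7 against C57 grafts. The ear levels behind these values were low, with 21 counts of Krt71, 21 of Krt25 and 29 of Krt84 over the 3 C57 ears. Tissue and flow cell cannot be told apart here.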

How the results depend on the processing

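The fall from 14 to 28 dpg and the rise of grafts over C57 ear kept their direction and stayed within 1.5 times of their count in every alternative run. Leaving out single libraries gave 70 to 72 called members in C57, 68 to 71 in E7 and 51 to 70 in CD1dKOxE7 grafts over the days, 72 to 73 in C57 grafts at 14 dpg and 65 to 68 at 28 dpg against ear, and 72 to 73 in E7 grafts at 14 dpg and 29 to 36 at 28 dpg against ear. DESeq2 called 67 of E7 grafts at 28 dpg against ear, where edgeR called 43. In ear, no low-count filter gave 28 calls in place of 8, and leaving out single libraries 8 to 14 (14 without E7_8wks_288). The 6 calls of E7 against C57 grafts at 28 dpg became 10 with upper quartile normalization, 0 without the low-count filter, 30 with DESeq2, 34 when just those groups were fitted, and 0 to 17 with single libraries left out. With the replicate number as a block, although the numbers did not pair the libraries, that count was 1; the block gave 71 in C57, 71 in E7 and 68 in CD1dKOxE7 grafts over the days and changed no other count by over 1.5 times. CD1dKOxE7 against E7 grafts at 14 dpg gave 0 to 2 with single libraries left out. The E7 effect in 14 dpg grafts minus ear gave 26 calls with DESeq2 and 1 to 4 with single libraries left out, and that in 28 dpg grafts minus ear 39 with DESeq2, 20 when just those groups were fitted and 2 to 4 with single libraries left out. Where these counts moved, the cause was not tested. The share of all genes called in each alternative run is not given here. These counts therefore describe the members only and do not set them against other genes. Of 2360 alternative values of 184 named-gene results, 2249 stayed on their side of the threshold, 111 no longer passed and 0 changed sign. These results were all past the threshold in the main run. Results that did not pass there, some of which passed in other runs, are not in this count. A left-out library leaves groups of 2, and ear counts near 0 limit every comparison with ear.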
